A study of Sus scrofa with 12 samples.

Results

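Apolipoproteins are the proteins that package lipids for transport in blood, and the liver secretes most of them. APOA1 and APOA2 form the shell of high density lipoprotein, while very low density lipoprotein is built around APOB in the endoplasmic reticulum, where the microsomal triglyceride transfer protein, encoded by MTTP, loads the lipid. Exchangeable apolipoproteins such as APOC3 and APOE then set how fast the particles are hydrolysed and taken up again. The expression of these genes was examined in the liver of 12 suckling piglets, 6 of the SINS high group and 6 of the SINS low group. SINS is the swine inflammation and necrosis syndrome, in which inflamed and necrotic skin appears at the tail, ears, teats and claws. The piglets of the SINS high group carried the strongest clinical signs of those scored on the third day of life, and the piglets of the SINS low group had no signs or few. All came from hybrid sows mated with Pietrain semen in 1 herd, and each group was of mixed sex. The sex, litter and last suckling of the single piglets are not given in the sources used here. The groups were formed by the clinical score and hold no intervention.

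RNA of each liver was hybridized to 1 Affymetrix porcine gene array, and the log2 values of the authors, made with the RMA algorithm, were used as deposited. Genes were chosen by symbol: APOA1, APOA2, APOA4, APOB, APOC3, APOE, APOF, APOH, APOM and MTTP, taken from transcripts annotated with a single gene symbol. Of these 10 genes, 9 were found, each with 1 transcript, among 12307 named genes on 25388 transcripts. APOB was not found under a single symbol and is not analysed here. The median of the arrays lay between 4.36 and 4.42, and their highest value between 12.75 and 12.84. The correlation between any pair of arrays ranged from 0.964 to 0.988. The spread between the 6 livers of a group and their number limit the precision. The label of the tissue was borne out by hepatocyte markers, such as ALB, which encodes albumin and averaged 12.67 in the SINS high group, against 12.66 in the SINS low group. The mean of 14 hepatocyte markers per liver ranged from 11.31 to 11.47 in the SINS high group, whereas it ranged from 11.11 to 11.45 in the SINS low group. In whole liver RNA, fewer cells of a type and less RNA per cell cannot be told apart.

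With limma, 1 of the 9 genes, APOF, was up-regulated in SINS high livers and none was down-regulated, and with the methods' t-test none was called. Calls needed a fold change (FC) above 1.3 and an unadjusted p below 0.05, which is that of limma unless the methods' t-test is named. The log2(FC) is SINS high minus SINS low. The other 8 of the 9 genes were not called. Over all transcripts, 2.12% were up-regulated and 3.04% down-regulated, or 5.16% in either direction, and nothing is read from 1 call among 9 genes beside this background. By the methods' t-test on the deposited values, 0 of the 9 genes were called through their single-symbol transcripts. Of all transcripts, this test called 1.52% up-regulated, 2.36% down-regulated and 3.88% in either direction. Transcripts with several symbols or none were not used for the 9 genes, so a call there would be missed. The median log2(FC) of the 9 genes was 0.09, against 0.00 for all named genes. It was positive for 7 of the 9, against 6236 of all 12307 named genes. No transcript of the array had an adjusted p below 0.05 with limma (smallest adjusted p = 0.254), nor with the methods' t-test. There were 2884 transcripts by limma and 2631 by the methods' t-test at an unadjusted p below 0.05. The values of both groups overlapped for all 9 genes, as the plot of the genes by liver shows.

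**Figure D1:**
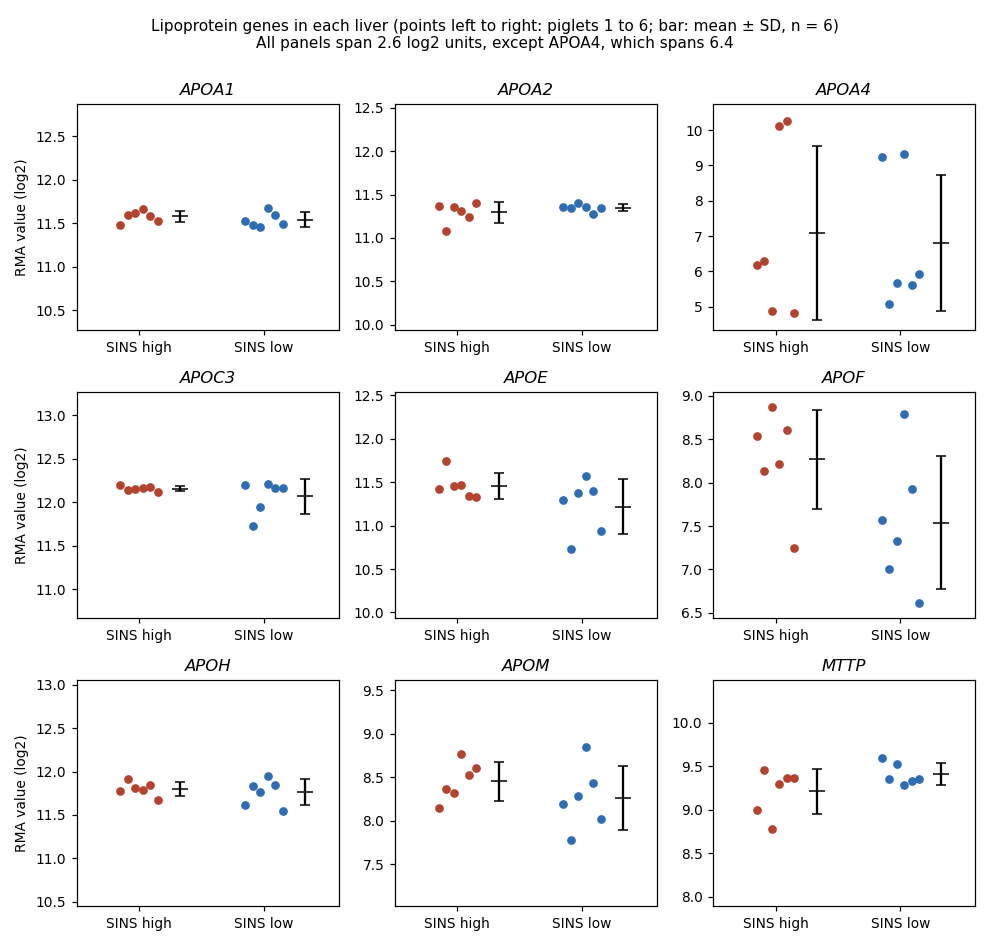
RMA values (log2) of the 9 lipoprotein genes in each liver, with the SINS high group at the left and the SINS low group at the right of each panel (points: piglets 1 to 6; bars: mean ± SD, n = 6 per group). APOA4 spans 4.82 to 10.25 with 2 livers of each group at 9.23 or above, whereas APOA1 spans 11.46 to 11.68.

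APOA4 showed the widest spread of these genes, and the spread ran within both groups and not between them. APOA4 encodes an apolipoprotein of chylomicrons and high density lipoprotein that the small intestine and, in many mammals, the liver produce. In the SINS high group, APOA4 had log2 values of 6.18, 6.30, 4.88, 10.11, 10.25 and 4.82 in piglets 1 to 6. In the SINS low group, the values of APOA4 were 9.23, 5.08, 5.68, 9.33, 5.61 and 5.91 in piglets 1 to 6. SINS high piglets 4 and 5 and SINS low piglets 1 and 4 thus stood far above the others, 2 of 6 livers in each group. These 4 livers lay between 9.23 and 10.25, and the other 8 livers lay between 4.82 and 6.30, with no value between. The gap of 2.93 on the log2 scale corresponds to a 7.62-fold difference, and the lowest and highest liver differed 43.1-fold. Only 1 other gene of the 12307 had a gap between neighbouring livers as large as that of APOA4.

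The difference between the groups in APOA4 was smaller than this spread. APOA4 averaged 7.09 ± 2.47 in the SINS high group, against 6.81 ± 1.94 in the SINS low group (mean ± SD, n = 6 each). Its log2(FC) was 0.28 (standard error 1.08), with a 95% interval of −2.02 to 2.59 and an adjusted p of 0.95 from limma. An exact permutation test over all 924 assignments of the piglets gave a two-sided p of 0.721. The interval spans both a fall and a rise of several fold, so the array data do not settle whether APOA4 differs with the syndrome. The sign of the log2(FC) of APOA4 also turned when a single array was left out, with −0.35 without SINS high replicate 5, −0.32 without SINS high replicate 4 and −0.06 without SINS low replicate 2.

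The SD of APOA4 within groups, 2.22 on the log2 scale, ranked 2 among the 12307 named genes. None of the 1474 other named genes whose mean lay within 0.5 of that of APOA4 had an SD as large, and their median SD was 0.22. Enterocytes, the absorptive cells of the small intestine, also make APOA4. None of 9 enterocyte markers was called between the groups, and the part of such cells in the APOA4 values was not tested. The mean of these markers was 4.09 and 4.30 in SINS high piglets 4 and 5 and 4.46 and 4.06 in SINS low piglets 1 and 4. Over all livers, this mean ranged from 4.07 to 4.30 in the SINS high group, whereas it ranged from 3.99 to 4.46 in the SINS low group. FABP2, the intestinal fatty acid binding protein on this list, was singled out after its values were seen. It had 3.94 and 3.73 in SINS high piglets 4 and 5 and 2.87 and 3.07 in SINS low piglets 1 and 4. In the other livers FABP2 had between 2.47 and 3.41, and all its values lay below the array medians. Pearson's r with APOA4 after subtraction of the group means was 0.66 for FABP2. It was 0.16 for CDX1, 0.10 for MEP1B, 0.01 for CDH17 and −0.03 for VIL1. The r was −0.13 for MEP1A and for CDX2, −0.34 for ANPEP and −0.37 for SLC5A1.

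The 5 genes with the pattern most like that of APOA4 over the 12 livers were ABHD5, PMM1, MFSD2A, TMEM248 and RDH10. The measure of likeness was Pearson's r after subtraction of the group means. It is given as a description without a test, since APOA4 fell into separate levels and all genes share the arrays. ABHD5, the co-activator of adipose triglyceride lipase at lipid droplets, came first with an r of 0.96 (Spearman's rho 0.92). ABHD5 had 8.12 and 8.40 in SINS high piglets 4 and 5 and 7.83 and 7.76 in SINS low piglets 1 and 4, and at most 7.34 in the other 8 livers. PMM1, a phosphomannomutase, followed with an r of 0.94 (rho 0.92). MFSD2A, a transporter of lysophosphatidylcholine, had an r of 0.93 (rho 0.86). MFSD2A reached 6.50 and 6.47 in SINS high piglets 4 and 5 and 4.96 and 5.85 in SINS low piglets 1 and 4, with 4.88 in SINS high piglet 2 as the highest of the others. TMEM248, a membrane protein, had an r of 0.93 (rho 0.80) over a narrow range of 8.38 to 8.98, and RDH10, a retinol dehydrogenase, an r of 0.93 (rho 0.87). The sixth place was held by CREB3L3, a liver transcription factor known from mice to activate Apoa4. It is named here because it is on the list of assembly genes. CREB3L3 is 1 of 29 other named genes in which the same 4 livers were the highest, and its part in the APOA4 values was not tested. ESRRA, from the list of transcription factors, is another of the 29. Its r was 0.78, with 5.78 to 6.02 in the 4 livers and 5.21 to 5.63 in the other 8, and its part was not tested either. CREB3L3 had an r of 0.91 (rho 0.86), with 9.08 and 9.23 in SINS high piglets 4 and 5, 9.16 and 8.95 in SINS low piglets 1 and 4, and 8.32 to 8.86 in the other livers.

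Between the groups, the log2(FC) was 0.00 for ABHD5 (standard error 0.30), 0.44 for MFSD2A (standard error 0.59) and −0.06 for CREB3L3 (standard error 0.17), with adjusted p-values from limma of 1, 0.829 and 0.928.

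**Figure D2:**
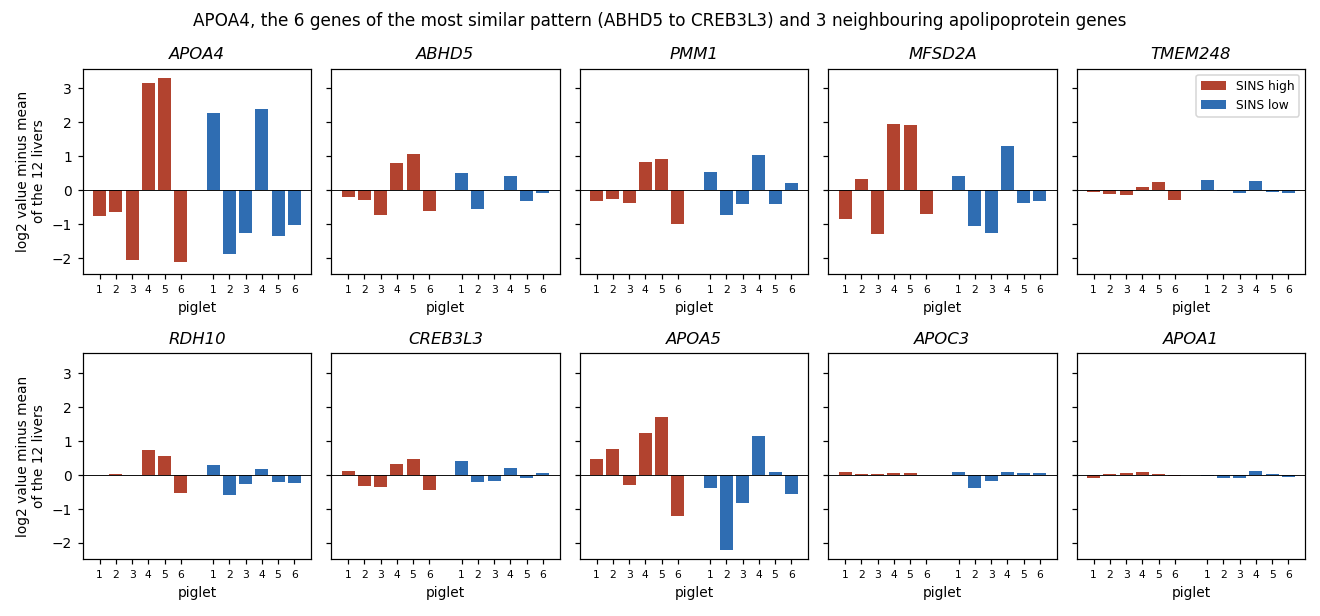
Log2 value minus the mean of the 12 livers for APOA4, for the 6 genes with the most similar pattern (ABHD5, PMM1, MFSD2A, TMEM248, RDH10 and CREB3L3) and for APOA5, APOC3 and APOA1, with SINS high piglets 1 to 6 left of SINS low piglets 1 to 6 and 1 vertical scale for all panels. The bars of SINS high piglets 4 and 5 and SINS low piglets 1 and 4 stand above 0 for APOA4 and the 6 similar genes, while those of APOC3 and APOA1 are small throughout.

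In the RefSeq annotation of the Sscrofa11.1 assembly, APOA5, APOA4, APOC3 and APOA1 lie in this order, with ZPR1 and BUD13 on the side of APOA5. A non-coding RNA gene, LOC106504887, spans the position of APOA4 in that annotation. Its strand is not given here, and whether the APOA4 probes also read it was not tested. APOA5 encodes an activator of lipoprotein lipase. It was high in SINS high piglets 4 and 5, at 9.48 and 9.96, and in SINS low piglet 4, at 9.41. SINS low piglet 1, which had high APOA4, reached only 7.86 for APOA5, below SINS high piglet 2 at 9.02. APOA5 had 8.73, 7.96 and 7.04 in SINS high piglets 1, 3 and 6, against 6.05, 7.43, 8.35 and 7.68 in SINS low piglets 2, 3, 5 and 6. Its log2(FC) was 0.90 (standard error 0.53, adjusted p = 0.544 from limma, exact permutation p = 0.18, two-sided). The value of APOA5 was 1.23 without SINS high replicate 6 and 0.55 without SINS low replicate 2, and it passed the filter in 2 of the 12 fits without 1 array. BUD13 is 1 of the 29 other named genes in which the 4 livers with high APOA4 were the highest, whereas ZPR1, APOA5, APOC3 and APOA1 are not. BUD13 lay between 5.75 and 6.25 in the SINS high group and between 5.37 and 6.12 in the SINS low group.

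The array values of the structural apolipoproteins of high density lipoprotein, APOA1 and APOA2, were nearly constant over the livers. They lay near the bright end of the arrays, where RMA may compress differences. APOA1, which activates the cholesterol-esterifying enzyme of plasma, had a lowest, median and highest value of 11.48, 11.59 and 11.66 in the SINS high group and of 11.46, 11.51 and 11.68 in the SINS low group. Its log2(FC) was 0.04 (95% interval −0.12 to 0.20). APOA2, the second protein of these particles, had a lowest, median and highest value of 11.08, 11.34 and 11.40 in the SINS high group and of 11.28, 11.36 and 11.40 in the SINS low group. The lowest values of APOA2 were those of SINS high piglets 2 and 5, at 11.08 and 11.24, and the log2(FC) was −0.06 (95% interval −0.22 to 0.11). APOM, the carrier of sphingosine-1-phosphate on these particles, varied more, with 8.14, 8.45 and 8.77 in the SINS high group and 8.24 as the median of the SINS low group, whose values ran from 7.78 to 8.85. The log2(FC) of APOM was 0.20 (95% interval −0.15 to 0.54, adjusted p = 0.681 from limma), and 5 of 6 SINS high livers lay above the SINS low median.

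The apolipoproteins that regulate the clearance of triglyceride-rich particles did not pass the filter. APOC3, an inhibitor of lipoprotein lipase, had 12.12, 12.16 and 12.20 as its lowest, median and highest value in the SINS high group. In the SINS low group, APOC3 had a median of 12.16 and a highest value of 12.21, but piglets 2 and 3 were lower, at 11.72 and 11.94. The log2(FC) of 0.09 for APOC3 (95% interval −0.11 to 0.29) became 0.02 without SINS low replicate 2. APOE, the ligand by which remnant particles bind the receptors of the liver, had 11.33, 11.44 and 11.74 in the SINS high group as its lowest, median and highest value, and 10.73, 11.34 and 11.57 in the SINS low group. The lowest livers for APOE were SINS low piglets 2 and 6, at 10.73 and 10.94, and the highest was SINS high piglet 2. The log2(FC) of APOE was 0.24 (95% interval −0.05 to 0.53, adjusted p = 0.526 from limma, exact permutation p = 0.152, two-sided), and 5 of 6 SINS high livers lay above the SINS low median. APOE is also made by macrophages. Of 12 Kupffer cell markers, which stand for liver macrophages, 4 were up-regulated and 0 down-regulated, against 2.12% and 3.04% of all transcripts. Among the 4 were CSF1R with a log2(FC) of 0.47, VSIG4 with 0.50 and TIMD4 with 0.45. Of the other 8 markers, MARCO had a negative log2(FC), −0.23. By the methods' t-test 2 of the 12 markers were called, CSF1R and VSIG4. With limma, the count of up-regulated markers was 1 without SINS high replicate 3 and 6 without SINS high replicate 6. In these fits, 428 and 893 of all 25388 transcripts were up-regulated, against 538 with all arrays. The mean of the 12 markers ranged from 6.98 to 7.52 in the SINS high group, whereas it ranged from 6.69 to 7.14 in the SINS low group. Their part in the values of APOE was not tested.

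APOF, which encodes an apolipoprotein known in humans as an inhibitor of lipid transfer between lipoproteins, was the up-regulated gene. APOF had log2 values of 8.54, 8.13, 8.87, 8.21, 8.61 and 7.25 in SINS high piglets 1 to 6, against 7.57, 7.0, 7.33, 8.79, 7.93 and 6.61 in SINS low piglets 1 to 6. Of the SINS high livers, 5 were above 8, and of the SINS low livers only piglet 4 was, so that the groups overlapped through SINS high piglet 6 and SINS low piglet 4. APOF averaged 8.27 ± 0.57 in the SINS high group, against 7.54 ± 0.76 in the SINS low group (mean ± SD, n = 6 each), a 1.66-fold difference. The log2(FC) was 0.73 (standard error 0.33, 95% interval 0.02 to 1.44), with an unadjusted p of 0.0448 and an adjusted p of 0.426 from limma. The exact permutation test, two-sided, gave p = 0.0974 for APOF. For the 1 transcript used, the call was lost with the methods' t-test on the deposited values and in 9 of the 12 fits without 1 array. Transcripts with several symbols or none were not searched for APOF, so these results hold for that transcript only. In these 12 fits, the log2(FC) of APOF ranged from 0.54 without SINS low replicate 6 to 0.98 without SINS low replicate 4.

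The marker lists of other cell types differed in how many members were called between the groups. The share over all transcripts was 2.12% up-regulated and 3.04% down-regulated with limma, and 1.52% and 2.36% by the methods' t-test. Besides the 4 of 12 Kupffer cell markers, 6 of 10 markers of red blood cell precursors were up-regulated and 0 down-regulated, and 5 by the methods' t-test. The mean of these 10 markers ranged from 4.30 to 4.99 in the SINS high group, whereas it ranged from 3.63 to 4.47 in the SINS low group. Of 14 hepatocyte markers, 2 were up-regulated, CYP2E1, an ethanol-oxidizing cytochrome P450, with a log2(FC) of 0.88 and TAT, a tyrosine aminotransferase, with 0.52. Of 9 endothelial markers, 1 was up-regulated, the angiopoietin receptor gene TEK, with 0.56. Of 6 neutrophil markers, 1 was up-regulated, the myeloperoxidase gene MPO, with 0.90. Without SINS high replicate 6, 5 of the 6 neutrophil markers were up-regulated. In that fit, 893 of all 25388 transcripts were up-regulated, against 538 with all arrays. None of 6 bile duct markers, 9 stellate cell markers and 9 enterocyte markers passed the filter in either direction, and their median log2(FC) was −0.10, −0.08 and −0.09. The part of these cell types in the values of APOF was not tested.

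The genes whose values followed APOF most closely over the livers were of mixed function. SLU7, a splicing factor, had an r of 0.95 with APOF after subtraction of the group means (rho 0.96). DPP4, a dipeptidyl peptidase of the cell surface, had an r of 0.95 (rho 0.94). IDS, a lysosomal sulfatase, HSD17B2, a steroid dehydrogenase, and LMBR1L, a membrane protein, each had an r of 0.94. HSD17B2 was at 8.56 to 8.93 in SINS high piglets 1 to 5 and at 7.44 in SINS high piglet 6, and in the SINS low group it was highest in piglets 4 and 5, at 9.06 and 8.91. None of the 5 genes was called except LMBR1L, with a log2(FC) of 0.39 (standard error 0.17, adjusted p = 0.418 from limma, exact permutation p = 0.0801, two-sided). Their r is a description over 12 livers that share arrays and normalization with APOF.

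APOH and MTTP completed the set. APOH, also called beta-2-glycoprotein I, binds phospholipids and takes part in coagulation. APOH had a lowest, median and highest value of 11.67, 11.80 and 11.91 in the SINS high group and of 11.55, 11.79 and 11.95 in the SINS low group, and its log2(FC) was 0.04 (95% interval −0.15 to 0.23). MTTP was the only gene of the set besides APOA2 with a negative log2(FC), −0.20 (95% interval −0.45 to 0.06, adjusted p = 0.556 from limma, exact permutation p = 0.141, two-sided). Its lowest, median and highest value was 8.78, 9.33 and 9.46 in the SINS high group and 9.28, 9.35 and 9.60 in the SINS low group. SINS high piglets 1 and 3 were lowest, at 9.0 and 8.78, while the other 4 SINS high livers lay between 9.30 and 9.46. Without SINS high replicate 3, the log2(FC) of MTTP was −0.11.

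For APOA1, APOA2, APOC3 and APOH, the 95% interval of the difference lay within a fold change of 1.3 in both directions. For APOE, APOM, MTTP, APOF and APOA4 it reached beyond, so that a difference of that size cannot be set aside for these 5 genes. All 4 genes with narrow intervals had means above 11, as had APOE. Since RMA may compress differences at the bright end, these intervals describe the array values and may understate differences in transcript level. On this array, 44 named genes had a mean above 11, and their median SD within groups was 0.12, against 0.22 for all named genes. The SD was 0.08 for APOA1, 0.09 for APOA2, 0.12 for APOH and 0.14 for APOC3, and 0.25 for APOE.

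**Figure D3:**
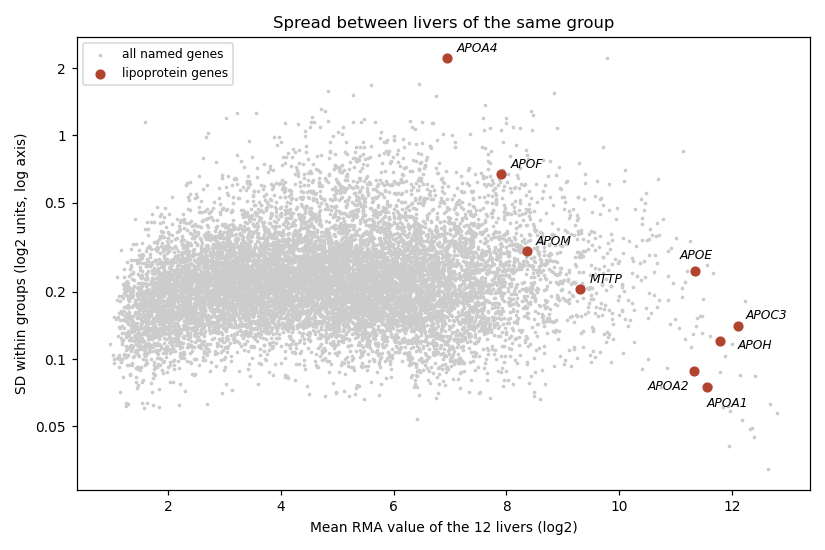
SD within groups (log2 units, log axis) against the mean RMA value of the 12 livers (log2) for 12307 named genes in grey and the 9 lipoprotein genes in red. APOA4 lies at the top with an SD of 2.22, APOF follows with 0.67, and APOA1 is the lowest of the 9 with 0.08.

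The 8 genes other than APOA4 varied together only in part. Pearson's r was computed over the 12 livers for all 28 pairs, with p-values from permutation tests with 100000 resamples that were adjusted over the 28 pairs, and 0 pairs had an adjusted p below 0.05. APOA1 and APOM had the smallest p, with an r of 0.78 (permutation p = 0.00266, adjusted p = 0.0745) and a rho of 0.76 (permutation p = 0.00581, adjusted p = 0.125). Without the 2 livers farthest from the median of APOA1, r was 0.58 for APOA1 and APOM, and within the groups it was 0.58 in the SINS high group, against 0.86 in the SINS low group. APOE and APOF had an r of 0.71 (permutation p = 0.00565, adjusted p = 0.0791) and a rho of 0.73 (permutation p = 0.00895, adjusted p = 0.125). For APOE and APOF, r was 0.40 without the 2 livers farthest from the median of APOE, and within the groups it was 0.10 among SINS high and 0.83 among SINS low livers. Negative and positive r were equally frequent, with 14 of 28 pairs positive.

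Since APOA4 fell into 2 separate levels, its relation to the other genes was tested within the 8 livers of the lower level. Over these 8 livers, r ranged from −0.53 with APOA2 to 0.35 with APOC3 (exact permutation p = 0.167 and 0.399), and the smallest adjusted p of the 8 genes was 0.82. The rank correlation of APOA4 was −0.38 with APOA2 and 0.41 with APOC3 (exact permutation p = 0.345 and 0.314, adjusted p = 0.72 for both). Without the 2 livers farthest from the APOA4 median, r was −0.45 with APOA2 and 0.83 with APOC3. The 4 livers of the upper level were too few for such a test. Over all 12 livers, after subtraction of the group means, r with APOA4 was 0.54 for APOM, 0.50 for APOA1 and 0.44 for APOC3 and APOF. It was 0.35 for MTTP, 0.28 for APOE, 0.15 for APOH and −0.16 for APOA2. For APOA1 and APOM, r over the lower 8 livers was −0.14 and −0.13. The values over 12 livers are given without a test, because of the separate levels.

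Other genes of lipoprotein metabolism were examined by their role in the pathway, and few passed the filter. Of all transcripts, 2.12% were up-regulated and 3.04% down-regulated with limma. Among further apolipoproteins, 4 of 11 listed genes were measured and 0 passed. These are APOA5, CLU with a log2(FC) of 0.24, APOC4 with 0.29 and APOC2 with 0.05, all positive. CLU encodes clusterin, a chaperone carried by high density lipoprotein, and APOC2 the activator of lipoprotein lipase.

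Of 26 genes for the lipidation of lipoproteins and their export from the endoplasmic reticulum, 17 were measured, of which 0 were up-regulated and 1 was down-regulated. The median log2(FC) was −0.08. SEC13, a coat protein of the vesicles that leave the endoplasmic reticulum, was down-regulated, with 6.64 ± 0.41 in the SINS high group, against 7.04 ± 0.30 in the SINS low group (mean ± SD, n = 6 each). The log2(FC) was −0.41 (standard error 0.18, adjusted p = 0.426 from limma, exact permutation p = 0.0801, two-sided). The call of SEC13 was lost with the methods' t-test and in 8 of the 12 fits without 1 array, for example at −0.31 without SINS high replicate 3. MIA3, the receptor that loads large cargo into these vesicles, showed 0.32 as log2(FC) (standard error 0.12, exact permutation p = 0.0303), and PLA2G12B, a phospholipase-like protein needed for lipidation in mice, had 0.25 (standard error 0.10, exact permutation p = 0.0195). Both stayed below the fold change of the filter. SAR1B, the small GTPase of these vesicles, had a log2(FC) of −0.09 and CIDEB, a lipid droplet protein of lipoprotein maturation, 0.08.

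Of 14 genes that act on lipoproteins in plasma, 8 were measured and 0 passed the filter. LIPC, the hepatic lipase that hydrolyses lipids of remnants and high density lipoprotein, had the smallest p of them. LIPC had a lowest value of 9.42 and a highest of 10.01 in the SINS high group, and of 9.29 and 9.56 in the SINS low group, with SINS high piglet 6 the lowest of its group. The log2(FC) was 0.34 (standard error 0.10, adjusted p = 0.287 from limma, exact permutation p = 0.00649, two-sided), a fold change of 1.27, which is below that of the filter. PCSK6, a protein convertase, showed −0.33 as log2(FC) (standard error 0.13, exact permutation p = 0.039), and LIPG, the endothelial lipase, 0.68 (standard error 0.37, exact permutation p = 0.152). Without SINS high replicate 6, 3 of the 8 genes were up-regulated. In that fit, 893 of all 25388 transcripts were up-regulated, against 538 with all arrays. PCSK6 was down-regulated without SINS high replicate 4 and without SINS high replicate 5. LIPG varied widely, from 4.98 to 7.37 in the SINS high group, whereas it ranged from 4.69 to 6.64 in the SINS low group.

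Of 19 receptors, their regulators and lipid exporters, 13 were measured, of which 0 were up-regulated and 1 was down-regulated. OLR1, the lectin-like receptor for oxidized low density lipoprotein of endothelial cells and macrophages, fell in the SINS high group. OLR1 had 5.45 ± 0.23 in the SINS high group, against 6.07 ± 0.35 in the SINS low group (mean ± SD, n = 6 each), and lay between 5.19 and 5.87 in SINS high livers and between 5.57 and 6.46 in SINS low livers, so that the groups overlapped. The log2(FC) was −0.63 (standard error 0.16, adjusted p = 0.28 from limma, exact permutation p = 0.00649, two-sided). OLR1 passed the filter with the methods' t-test and in all 12 fits without 1 array, in which its log2(FC) ranged from −0.73 to −0.55. SDC1, the proteoglycan that binds remnants at the hepatocyte surface, showed −0.29 as log2(FC) (standard error 0.12, exact permutation p = 0.0455), and MYLIP, the ligase that degrades the low density lipoprotein receptor, 0.31 (standard error 0.14, exact permutation p = 0.0671). SCARB1, the receptor for high density lipoprotein, had −0.07, and ABCA1, which loads cholesterol onto APOA1, 0.08.

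**Figure D4:**
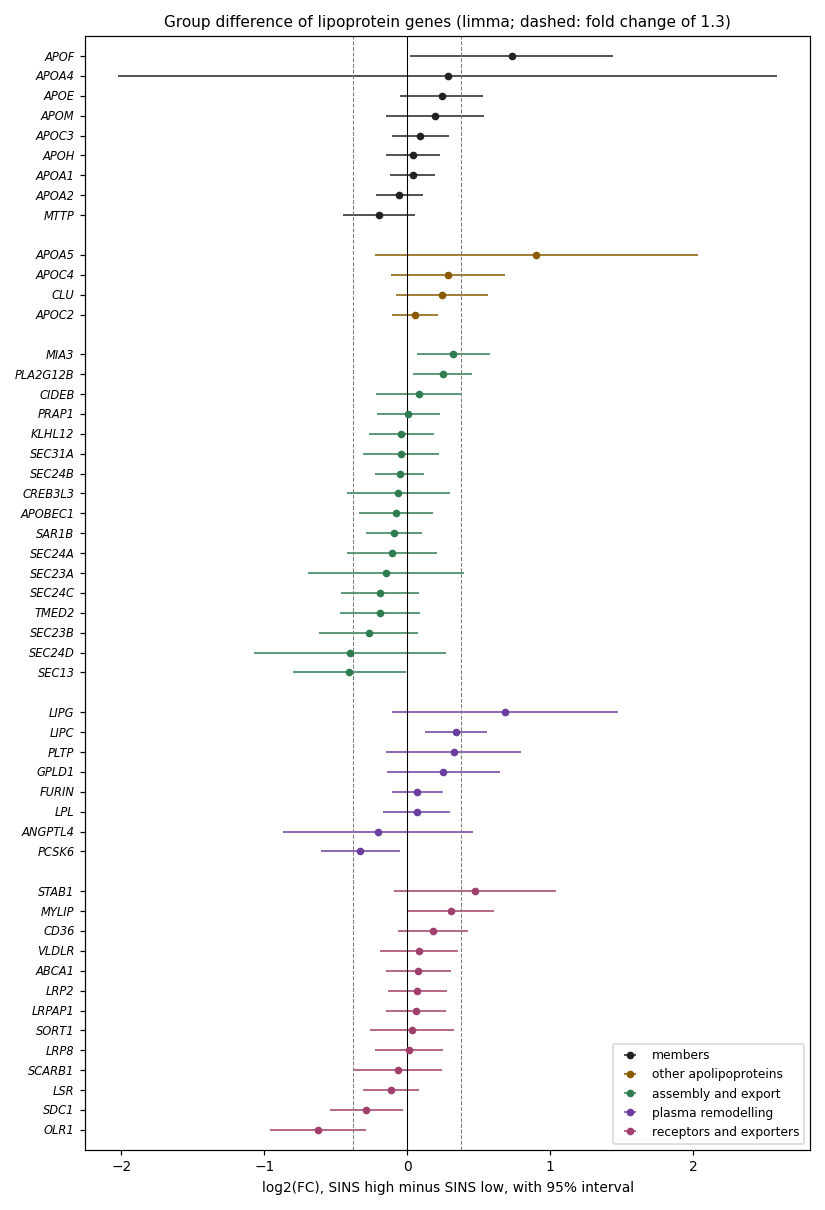
Log2(FC) of SINS high minus SINS low with 95% intervals from limma for the 9 lipoprotein genes, further apolipoproteins, genes of assembly and export, genes of remodelling in plasma, and receptors and exporters (dashed lines: fold change of 1.3). The interval of APOA4 is the widest, from −2.02 to 2.59, while APOF, SEC13 and OLR1 are the genes that passed the filter.

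Of 28 transcription factors known to act on apolipoprotein genes, 22 were measured and 0 were called, and their median log2(FC) was 0.05. The 3 with the smallest p were FOXA1, a pioneer factor of the liver, with −0.34 (standard error 0.17), PROX1, a hepatocyte regulator, with 0.26 (standard error 0.14), and NR1H2, an oxysterol receptor, with 0.18 (standard error 0.10). The log2(FC) of HNF4A, a nuclear receptor that drives many hepatic apolipoprotein genes, was −0.09 (standard error 0.17), and that of PPARA, the receptor for fatty acids, 0.09 (standard error 0.25).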

How the data were processed

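Liver RNA of 12 piglets, 6 of the SINS high and 6 of the SINS low group, was measured on Affymetrix GeneChip Porcine Gene 1.0 ST arrays, 1 per piglet. The authors deposited log2 values from RMA (background correction, normalization across arrays, summary per transcript) in Expression Console, and these were used without further scaling. RMA may compress differences at the bright and dim ends. Of 25388 transcripts, 13257 carry 1 gene symbol, 427 several and 11704 none. Where a gene had several transcripts, the one with the highest mean was taken.

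The test of the 2 groups was limma 3.58.1 (R 4.3.3; lmFit, then eBayes), without covariates and over all transcripts, with p-values adjusted after Benjamini and Hochberg. The code was tested on simulated data. Exact permutation tests used all 924 assignments. Each sample is 1 piglet, and the litters are not given, so piglets of 1 litter may be among them. The named genes are the 9 members, of each related list the called genes or the 3 with the smallest p, and the 5 genes most like APOA4 and APOF. Genes outside this rule are named from the same lists after their values were seen. Members and lists were chosen with earlier results of these data known. The planned test of r of APOA4 over 12 livers was replaced by that over 8, and r over 12 is given without a test. No sequences were used here. The alternatives tried were the methods' t-test, an intensity trend with robust eBayes, array weights, a filter on dim transcripts, quantile normalization, median centring, a replicate block, a fold change above 1.5 and leaving out each array. Figures were drawn with matplotlib 3.10.9.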

Additional observations from a re-analysis of the deposited data

Results flagged for a closer look

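For the named genes, the gap between the highest or lowest of 6 livers and the next was set against the range of the group by Dixon's criterion, and 3 of 70 groups were singled out, where chance singles out about 1 in 20. APOE of SINS high piglet 2 had a log2 value of 11.74, while the other 5 SINS high livers lay between 11.33 and 11.47. HSD17B2 of SINS high piglet 6 had 7.44, while the other 5 SINS high livers lay between 8.56 and 8.93. HEMGN, a marker of red blood cell precursors, had 5.79 in SINS low piglet 4, while the other 5 SINS low livers lay between 4.31 and 4.80. APOA4 was not singled out in this way, because 2 livers stood apart in each group.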

How the results depend on the processing

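The log2(FC) of APOA1, APOA2, APOC3, APOE, APOM and MTTP kept its sign and stayed outside the filter in all 20 alternatives. The log2(FC) of APOF stayed positive in all of them, but its call was lost in 11, so that 0 of the 9 genes were called. It was 0.73 with both the methods' t-test and an intensity trend with robust eBayes, and 0.54 to 0.98 in the fits without 1 array. APOA4 was 1.02 with array weights and ranged from −0.35 to 0.79 in the fits without 1 array, and APOH from −0.002 to 0.078. Over the lower 8 livers, the r of APOA4 turned its sign with 1 liver left out for APOA1 (−0.46 to 0.17), APOF (−0.11 to 0.54), APOH (−0.19 to 0.52), APOM (−0.58 to 0.23) and MTTP (−0.21 to 0.56). The cause was not tested.

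Over all transcripts, 538 were higher and 773 lower, against 893 and 1254 without SINS high replicate 6 and 165 and 251 at a fold change above 1.5. With the replicate number as a block, the log2(FC) of APOF was 0.73 (adjusted p = 0.228 from limma), and APOA5 passed the filter as well. The numbers only name the piglets: livers of the same number correlated in their deviations with r from −0.0003 to 0.34, and 2 of 6 correlated best with their own number. Each of the 9 genes has 1 transcript annotated with its single symbol, so the mean over transcripts was not run. The number of arrays and the spread between livers limit what can be detected, above all for APOA4.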
